A study of Mus musculus with 26 samples.

Results

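The colon of mice on standard diet was compared between day 22 of the azoxymethane (AOM) and dextran sulfate sodium (DSS) model and the untreated state, across all genes measured by bulk RNA-seq. The comparison used 7 of the 26 samples of the series, chosen by their labels: the 3 samples of standard diet with AOM-DSS at day 22, and the 4 samples of standard diet without AOM-DSS, which had been on the diet for 22 days (2 samples) or 43 days (2 samples) and were pooled as day 0. All were wild-type C57BL/6J males from Taconic, about 10 weeks old at the start. AOM, an alkylating carcinogen, was injected once at 10 mg per kg, and DSS, a polysaccharide that damages the colonic epithelium, was given in the drinking water from 7 days later for a cycle of 7 days, so that day 22 came 8 days after the end of the first DSS cycle. Untreated mice received neither agent. RNA came from biopsies of the distal colon. The study's reporting notes describe the bulk samples as pools of biological replicates, whereas its figure legend gives 3 to 4 mice per timepoint. The number of animals per sample is therefore not settled. The p-values measure the spread between samples, in an estimate shared by all 26 samples of 8 groups. All 3 samples of day 22 were labelled cage A and all 4 untreated samples cage E, so that treatment and cage cannot be told apart. In whole tissue, fewer cells of a type and less RNA per cell cannot be told apart either.

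AOM-DSS is used as a model of inflammation-driven colorectal cancer: DSS strips the epithelium and lets bacteria reach the lamina propria, neutrophils and monocytes enter, and the epithelium then closes the wound through a transient programme in which fetal intestinal genes come back. Colonocytes, the absorptive cells of the surface, live largely on butyrate oxidised in their mitochondria. Interferons and presentation on MHC class II link the innate response to the lymphocytes that follow. The labels give 7 days of regular water between DSS cycles and the study's methods a longer interval, and with the shorter one the next cycle would already have begun by day 22.

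The 7 samples held between 18195345 and 20964123 estimated counts. RNA integrity numbers were 9.6 to 10 at day 22 and 10 in each untreated sample. Among the other samples that share the estimate of spread, replicate 1 of standard diet AOM-DSS at day 43 had an integrity number of 2.6. Ribosomal protein genes took 6.06% to 8.87% of the counts at day 22 and 5.34% to 6.45% in untreated colon, and mitochondrial genes took 6.16% to 12.5% and 5.32% to 11.3%. The leading principal component of the 500 most variable genes held 63.7% of their variance. On it, the day 22 samples lay at 13.6, 44.1 and 53.5. The untreated samples of 22 diet days lay at -43.6 and -41.0, and those of 43 diet days at -6.36 and -20.3. On log2 CPM, day 22 replicate 1 correlated at 0.9636 with untreated 43-day replicate 1. Its correlations with day 22 replicates 2 and 3 were 0.9627 and 0.9609. The hindgut homeobox gene Hoxb13, a marker of distal colon, was at a mean of 263 counts per 1000000 of the scaled library (CPM) at day 22 and 457 CPM in untreated colon (adjusted p = 0.124), and 0 of 6 distal gut Hox genes passed the edgeR test. Of the 6, 5 were below 0 on the log2 scale, their summed level was 376 to 551 CPM at day 22 and 582 to 880 CPM in untreated colon, and DESeq2, the 7 samples compared alone and the replicate block each called 1 of them lower. The part of the sampled position in the results was not tested.

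At day 22, the colon of AOM-DSS mice was a tissue in which many more genes were higher than lower. Of 17063 genes tested, 1289 were higher (7.55%) and 337 were lower (1.98%) than in untreated colon at an adjusted p under 0.05 (edgeR quasi-likelihood test, Benjamini-Hochberg). The changes upward were also larger, with a median of 1.89 on the log2 scale among the genes that rose and 1.03 among those that fell, in size, and 587 genes rose but 43 fell by at least 4-fold. The median over all genes tested was 0.01. Values of the 3 day 22 samples and the 4 untreated samples did not overlap for 4583 genes (26.9%), and this held for 1499 of the 1626 genes called.

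**Figure D1:**
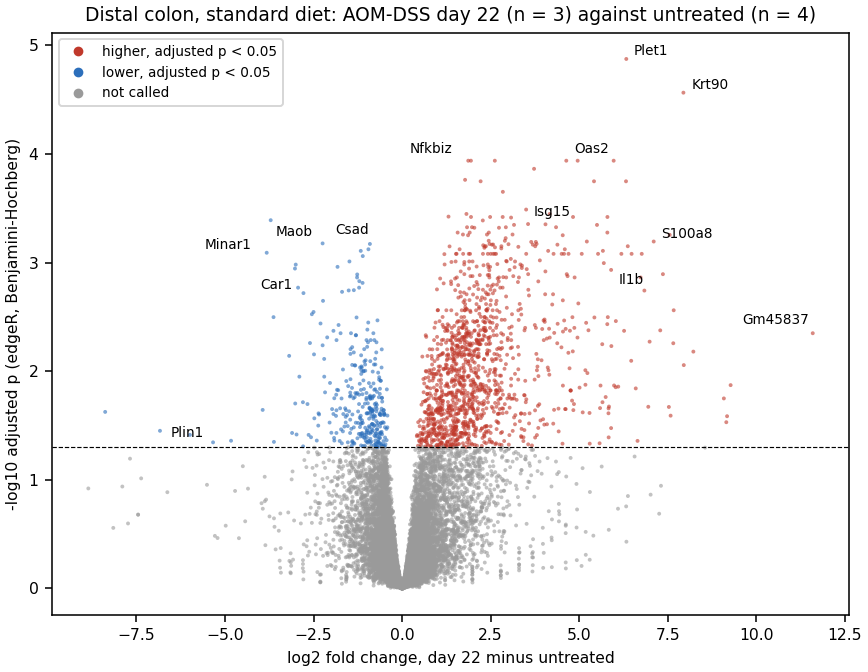
Each point is one of 17063 genes, with the log2 fold change of day 22 over untreated colon on the horizontal axis and the negative log10 of the adjusted p on the vertical axis, and the dashed line marks an adjusted p of 0.05. The 1289 red points reach further from 0 than most of the 337 blue points, and Plet1 and Krt90 have the smallest adjusted p.

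The size of these counts depended on single samples. Without day 22 replicate 2, 585 genes rose and 59 fell, and without replicate 3 the counts were 723 and 110. Without untreated 22-day replicate 1 they were 702 and 136, and without untreated 43-day replicate 2 they were 798 and 165. A further model gave every group its own slope on the percentage of ribosomal protein counts and compared the groups at the mean percentage of all samples. That mean lay above the 5.34% to 6.45% of the untreated samples, so their values in this model are extrapolated. No gene was called there in either direction by edgeR (168 at an unadjusted p under 0.05), and 372 of the 1626 genes called above had the opposite sign. Among these were H2-Ab1, H2-DMa and H2-Eb1 of MHC class II, Blk, Cd22 and Cd79b of B cells, Icos, Clu, Car1 and Fxyd4. With that percentage as a single term for all groups, 1057 genes rose and 264 fell.

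Among the genes that rose, day 22 replicate 1 had the lowest value of the 3 samples for 1053 of 1289. Replicate 2 was highest for 676 and replicate 3 for 536 of them. Among the untreated samples, the first 43-day sample was highest for 672 of the same genes.

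The 2 genes with the smallest p-values were Plet1 and Krt90. Plet1, a surface protein of placental and hair follicle progenitors that colonocytes display during repair, stood at 39.4, 84.2 and 177 CPM at day 22 and at 1.27, 0.614, 1.96 and 1.09 CPM in untreated colon. The lowest day 22 sample was thus far above the highest untreated sample, and the fold change was 80.4 (log2 6.33, SE 0.61, adjusted p = 1.33e-05, edgeR). Krt90, a type II keratin gene, was near 0 in untreated colon, with 2 counts in all 4 untreated samples together. At day 22 it gave 3.12, 7.69 and 10.6 CPM, a ratio of 299 (95% counting interval 82.2 to 2476, edgeR adjusted p = 2.72e-05). Wfdc18, a whey acidic protein family member, rose 31.0-fold from a mean of 3.64 to 113 CPM (adjusted p = 0.000115), and Khdc1a, a KH domain protein gene, rose 62.8-fold (adjusted p = 0.000115).

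Nfkbiz, which encodes the nuclear cofactor IκBζ, stood at 52.2, 63.1 and 93.3 CPM at day 22, against 16.95 to 23.4 CPM in untreated colon (3.65-fold, adjusted p = 0.000115, edgeR). Zc3h12a, the gene of the ribonuclease Regnase-1 that degrades cytokine mRNAs, rose 3.84-fold (adjusted p = 0.000115). In both genes every day 22 value lay above every untreated value, as the rule that named them required. Lgals9, the gene of galectin-9, rose 3.43-fold to 100.3, 130 and 143 CPM (adjusted p = 0.000173).

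Neutrophil genes had the highest median of the 34 gene lists examined, which together held 443 genes, of which 432 were tested, 111 rose and 19 fell. Of 18 neutrophil genes and neutrophil-attracting chemokines, 15 rose and none fell, against 7.55% and 1.98% of all genes tested. The median log2 change was 5.26, against 0.01 over all genes tested. S100a8, a subunit of the antimicrobial protein calprotectin, stood at 9.24, 139 and 187 CPM at day 22 and at 0.236 to 1.73 CPM in untreated colon (log2 7.10, SE 1.09, adjusted p = 0.00064, edgeR). Its partner S100a9 stood at 12.9, 148 and 245 CPM, against at most 2.38 CPM in untreated samples. The groups did not overlap for either gene, as held for 26.9% of all genes tested. Day 22 replicate 1 lay at least 10-fold below the other day 22 samples for both.

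The same order was seen in the receptors. Cxcr2, the receptor through which neutrophils follow CXC chemokines, gave 3.17, 19.3 and 37.1 CPM at day 22 and at most 0.693 CPM in untreated colon (50.9-fold, adjusted p = 0.000779), and Il1r2, the decoy receptor of IL-1, rose 42.7-fold (adjusted p = 0.000178). Day 22 replicate 1 was the lowest of the 3 samples for all 15 neutrophil genes that rose, and the highest day 22 value was a median of 15.1 times the lowest. Without that sample 16 of the 18 genes rose. Ly6g was the exception in level, at 162 to 263 CPM in every sample of both groups (adjusted p = 0.894), and the granule genes Ngp and Camp, at 0.0537 to 3.31 CPM at day 22, did not pass the test (adjusted p = 0.0782 and 0.119). Summed over the other 17 genes, the list stood at 64.2, 550 and 919 CPM at day 22 and at 10.4 to 14.7 CPM in untreated colon.

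The chemokines that draw neutrophils through CXCR2 are encoded side by side on chromosome 5. Cxcl2 stood at 0.484, 7.74 and 58.9 CPM, from 9 counts in all untreated samples together (ratio 209, 95% counting interval 109.7 to 458; adjusted p = 0.00275, edgeR). Cxcl1 rose to 1.93, 7.49 and 15.2 CPM from at most 0.723 CPM (adjusted p = 0.00444), Cxcl5 to 6.88, 75.3 and 105 CPM from at most 2.73 CPM (adjusted p = 0.00133), and Cxcl3 reached 12.9 CPM in day 22 replicate 3 (adjusted p = 0.0139). Day 22 replicate 1 was again the lowest. The start regions of Cxcl1, Cxcl2 and Cxcl3 share the letters of a κB site, the element bound by NF-κB, and are shown because the 3 genes rose together. Each line gives 60 bases on the gene's strand from RefSeq on GRCm38.p6, with the letters GGGA and TTTCC around any 1 base, searched on both strands, in capitals, and the match begins 71, 97 and 73 bases before the annotated start.
Cxcl1, chr5:90891149-90891208, plus strand: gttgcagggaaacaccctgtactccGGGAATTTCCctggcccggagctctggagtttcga
Cxcl2, chr5:90903777-90903836, plus strand: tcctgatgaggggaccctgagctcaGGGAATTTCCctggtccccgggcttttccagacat
Cxcl3, chr5:90786003-90786062, plus strand: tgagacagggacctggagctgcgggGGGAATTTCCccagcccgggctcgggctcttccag
These letters were found in 3 of the 16 neutrophil list genes with a window of 250 bases before to 50 after the start, and in 126 of 27025 genes with such a window (0.466%). A match describes the sequence and does not show a bound site.

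Of 17 colitis cytokines tested, 9 rose, against 7.55% of all genes, and none fell (median log2 change 2.51). Tnf, encoding tumour necrosis factor, stood at 5.27, 13.1 and 13.5 CPM at day 22 and at 0.141 to 1.24 CPM in untreated colon (16.5-fold, adjusted p = 0.000444, edgeR). Il1b, encoding IL-1β, stood at 9.99, 88.7 and 315 CPM, against 0.848 to 3.86 CPM (59.7-fold, adjusted p = 0.00117). Il11, a stromal cytokine of the IL-6 family, stood at 0.806, 9.22 and 17.9 CPM, against at most 0.383 CPM (46.2-fold, adjusted p = 0.000831). None of the 3 overlapped between groups, as held for 26.9% of all genes tested. Replicate 1 was the lowest day 22 sample for each of the 9 cytokine genes that rose. Without day 22 replicate 3, 5 of them were called, and against the 43-day untreated samples alone 4.

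Il17a, the cytokine of type 17 lymphocytes, was at 0.430, 2.14 and 5.99 CPM at day 22, with 1 count in the 4 untreated samples together (ratio 240, 95% counting interval 42.4 to 9521; adjusted p = 0.00128). Il10, Osm, Il1a, Il6 and Tgfb1 were the others that rose. Il22, Il17f and Il23a, which act in the same arm of immunity, were below 1 CPM on average in both groups and did not pass the test (adjusted p = 0.63, 0.623 and 0.606), so that at this depth no difference was detectable. Ifng gave 0.107 to 1.22 CPM at day 22 and at most 0.446 CPM in untreated colon (adjusted p = 0.238).

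Genes of mucosal defence rose in part. Of 18 tested, 8 rose, against 7.55% of all genes, and none fell (median log2 change 2.28). Duox2 and Duoxa2, which encode the epithelial hydrogen peroxide producing oxidase and its maturation factor, stood at 129 to 165 and 97.1 to 135 CPM at day 22, against 26.7 to 44.8 and 12.1 to 23.5 CPM in untreated colon (4.11-fold and 7.16-fold, adjusted p = 0.000478 and 0.00038, edgeR). All 3 day 22 samples were alike in these oxidase genes. Nos2, inducible nitric oxide synthase, stood at 27.7, 60.1 and 79.6 CPM from at most 5.40 CPM (25.96-fold, adjusted p = 0.000831). Saa3, an acute-phase serum amyloid A, followed the neutrophil order instead, with 3.22, 176 and 193 CPM at day 22 and 0.992 to 2.82 CPM in untreated colon (73.0-fold, adjusted p = 0.000831).

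Retnlb, the goblet cell antibacterial protein RELMβ, rose to 2.26, 3.82 and 20.0 CPM from at most 0.991 CPM (adjusted p = 0.00491). Ido1, Reg3g and Nod2 also rose. The number called was 5 without day 22 replicate 2 or 3, without either 22-day untreated sample or with the additive ribosomal term, and 4 against the 43-day untreated samples alone. Reg3b, the close relative of the lectin gene Reg3g, had 0.107 CPM in day 22 replicate 1, inside the untreated range, and did not pass (adjusted p = 0.104). Whether reads were shared between these related genes was not tested. Among the genes that did not pass were Pigr, the IgA transporter, with means of 1938 CPM at day 22 and 2099.7 CPM in untreated colon (adjusted p = 0.895), and Zg16, a goblet cell lectin (adjusted p = 0.902).

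Most interferon-stimulated genes rose. Of 18 tested, 13 rose, against 7.55% of all genes, and none fell, with a median log2 change of 1.96. Oas2, an oligoadenylate synthetase that senses double-stranded RNA, stood at 12.7, 18.6 and 14.2 CPM at day 22 and at 0.378 to 0.754 CPM in untreated colon (24.8-fold, SE 0.56 on the log2 scale, adjusted p = 0.000115, edgeR). Usp18, the protease that removes ISG15, stood at 8.65, 17.3 and 16.3 CPM against 1.32 to 3.07 CPM (6.14-fold, adjusted p = 0.000115). Isg15 itself stood at 39.7, 92.8 and 58.6 CPM against 3.82 to 9.76 CPM (11.8-fold, adjusted p = 0.000442).

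Slfn4, a Schlafen gene of myeloid cells, rose 13.2-fold to 71.0, 152 and 143 CPM (adjusted p = 0.000137), and Rsad2, the gene of the antiviral enzyme viperin, rose 3.75-fold (adjusted p = 0.000529). Across the 13 genes that rose, the highest day 22 value was a median of 1.92 times the lowest, against 1.95 over all 1289 genes that rose. The 5 that did not pass were Gbp2, Iigp1, Igtp, Irf1 and Cxcl10, which respond to interferon gamma. In each of these, untreated 43-day replicate 2 stood well above the other untreated samples, for example at 91.2 CPM against 9.28 to 11.9 CPM for Iigp1 and at 18.3 CPM against 0.992 to 1.88 CPM for Cxcl10. With day 22 values of 51.0 to 184 and 7.2004 to 33.0 CPM, both genes overlapped between the groups (adjusted p = 0.131 and 0.188).

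The letters of the interferon response element, GAAA on both sides of any 2 bases, searched on both strands, were found in the start windows of 8 of the 13 interferon-stimulated genes that had one (61.5%), and in 1079 of 27025 genes (3.99%). Overlapping matches were kept. The windows of Isg15, Ifit1 and Rsad2, on the gene's strand with each match in capitals, show how the element is repeated in the first, paired in the second and single in the third.
Isg15, chr4:156200862-156200921, minus strand: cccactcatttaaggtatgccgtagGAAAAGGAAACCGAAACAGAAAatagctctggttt
Ifit1, chr19:34640760-34640819, plus strand: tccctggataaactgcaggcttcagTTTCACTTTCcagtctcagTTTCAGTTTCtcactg
Rsad2, chr12:26456538-26456597, minus strand: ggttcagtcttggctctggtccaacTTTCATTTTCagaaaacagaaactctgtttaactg
The match starts 78, 104 and 120 bases before the annotated start, counted from the first match. Ifit1 stood at 30.3, 47.6 and 33.9 CPM at day 22 and at 4.06 to 10.5 CPM in untreated colon (adjusted p = 0.000831). The same letters were in 85 of the 910 genes that rose and had a window (9.34%) and in 7 of the 261 that fell (2.68%), against 494 of 12567 tested genes (3.93%). No test was made of these shares.

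T cell genes rose together. Of 14 tested, 12 rose, against 7.55% of all genes, and none fell (median log2 change 2.95). For all 14 the 2 groups did not overlap, as held for 26.9% of all genes tested. Cd3d, a subunit of the T cell receptor complex, stood at 12.3, 51.6 and 24.4 CPM at day 22 and at 1.04 to 4.21 CPM in untreated colon (13.7-fold, adjusted p = 0.000645, edgeR). Icos, a costimulatory receptor of activated T cells, stood at 13.6, 17.6 and 20.9 CPM against 0.565 to 3.28 CPM (12.9-fold, adjusted p = 0.000684). The cytotoxic granule genes Gzmb and Gzma rose 17.96-fold and 17.4-fold (adjusted p = 0.000356 and 0.00078), and the inhibitory receptor Ctla4 and the regulatory T cell factor Foxp3 rose as well (adjusted p = 0.00121 and 0.0122).

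Cd4 and Cd28 were the other members, at 22.2 to 30.2 and 7.63 to 11.7 CPM at day 22 (adjusted p = 0.0532 and 0.0644). Of 28 T cell receptor gene segments, 17 were higher, against 7.55% of all genes, and none lower, with a median log2 change of 3.24. Many V segments were near 0 in untreated colon, such as Trbv20 and Trbv14 at means of 0.0124 and 0.0532 CPM. At day 22 these 2 had means of 0.448 and 0.863 CPM. Segments near 0 in untreated colon could hardly be called lower, so the segment counts are not separate support. Constant segments of the β, α and δ chains, Trbc2, Trac and Trdc, all rose (log2 3.34, 2.96 and 3.47). Trdc stood at 3.39, 3.87 and 10.3 CPM at day 22. The γ chain segments Tcrg-C1, Tcrg-C2, Tcrg-C4, Tcrg-V6 and Trgv2 did not pass (adjusted p = 0.0604, 0.0842, 0.199, 0.143 and 0.392, edgeR). In untreated colon, the first 43-day sample had the highest value of each of the 12 T cell genes that rose.

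All 10 MHC class II presentation genes rose, against 7.55% of all genes, with log2 changes from 1.54 to 2.63 and a median of 1.84. H2-Ab1, the beta chain of the class II molecule I-A, stood at 528, 770 and 684 CPM at day 22 and at 117, 207, 310 and 174 CPM in untreated colon (3.27-fold, SE 0.42 on the log2 scale, adjusted p = 0.0112, edgeR). H2-DMa and H2-DMb1, the chains of the molecule that loads peptide, rose 3.79-fold and 3.69-fold (adjusted p = 0.00687 and 0.00571). H2-Eb1 rose 3.33-fold (adjusted p = 0.0159), and Ciita, the coactivator that switches class II genes on, rose from 10.9 to 25.5 CPM in untreated colon to 40.1 to 54.0 CPM (adjusted p = 0.0249).

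The groups did not overlap for any of the 10, as held for 26.9% of all genes tested. Untreated 43-day replicate 1 was the highest untreated sample for each of the 10. The number of class II genes called was 1 without day 22 replicate 2 and 4 without replicate 3, and 2, 5 and 3 without untreated 22-day replicate 1, 22-day replicate 2 and 43-day replicate 2. It was 5 with the additive ribosomal term and 0 against the 43-day untreated samples alone. The letters TGATTGG or CCAATCA of the Y box, the CCAAT-type element that class II promoters share, were in the start windows of 6 of the 7 class II genes with a window, and in 2431 of all 27025 genes (8.995%). Windows of 3 of them show the element at a like distance from the start, at 50, 61 and 63 bases before it.
H2-Aa, chr17:34287841-34287900, minus strand: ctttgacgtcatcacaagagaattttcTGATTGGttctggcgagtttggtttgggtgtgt
H2-Eb1, chr17:34305779-34305838, plus strand: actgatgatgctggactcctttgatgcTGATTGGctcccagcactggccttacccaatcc
H2-DMb1, chr17:34153101-34153160, plus strand: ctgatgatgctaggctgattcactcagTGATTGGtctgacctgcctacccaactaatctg
The genes shown include the class II gene with the smallest adjusted p, H2-DMb1, at 46.7, 75.3 and 57.3 CPM against 9.04 to 20.2 CPM. H2-Aa, the alpha chain of I-A, stood at 507, 868 and 677 CPM against 113 to 313 CPM (adjusted p = 0.0249).

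B cell genes were higher in level but passed the test in the minority. Of 12 tested, 4 rose, against 7.55% of all genes, none fell and the median log2 change was 2.14. The groups did not overlap for all 12, as held for 26.9% of all genes tested. Cd79b, a signalling chain of the B cell receptor, stood at 58.8, 149 and 91.4 CPM at day 22 and at 9.09, 6.09, 44.9 and 11.6 CPM in untreated colon (5.55-fold, adjusted p = 0.0425, edgeR). Blk, a kinase of the receptor pathway, and Cd22, an inhibitory coreceptor, rose 5.23-fold and 4.96-fold (adjusted p = 0.0319 and 0.0391). The first 43-day untreated sample lay well above the other untreated samples in all 3, and without it 9 of the 12 genes were called. None was called without day 22 replicate 2 or 3, or without any one of the other untreated samples.

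Ms4a1, which encodes CD20, stood at 57.8, 100.3 and 76.3 CPM at day 22 and at 5.19 to 39.4 CPM in untreated colon (4.54-fold, adjusted p = 0.0744). Cr2, the complement receptor of mature and follicular B cells, stood at 25.6, 30.9 and 26.3 CPM against 4.62 to 17.4 CPM (3.34-fold, adjusted p = 0.172). Plasma cell genes were spread widely among the untreated samples. Igha, the IgA heavy chain, stood at 1532 to 5413 CPM at day 22 and at 210 to 4694 CPM in untreated colon (adjusted p = 0.62). Of 10 plasma cell genes only Prdm1, the gene of the transcription factor Blimp-1, rose (2.96-fold, adjusted p = 0.000529). That share is close to the 7.55% of all genes, and Prdm1 is also expressed in activated T cells and epithelium. Without untreated 43-day replicate 1, 4 plasma cell genes were called.

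**Figure D2:**
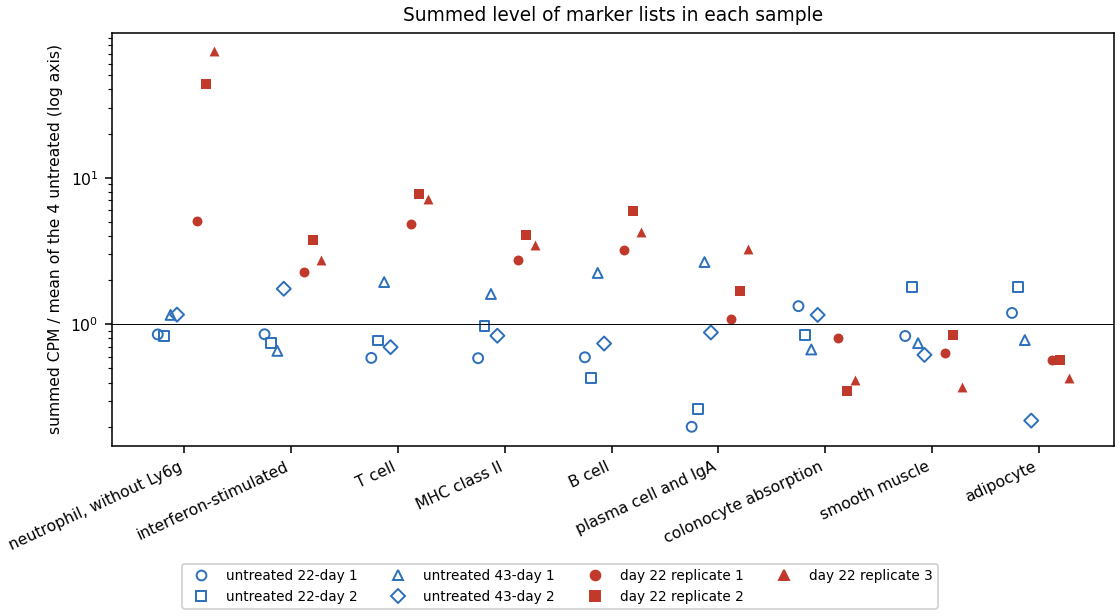
For each marker list the CPM of its tested members, without Ly6g in the neutrophil list, were summed in each sample and divided by the mean of the 4 untreated samples, on a log axis, with open blue symbols for untreated and filled red symbols for day 22 samples. Day 22 replicate 1 lies far below the other day 22 samples in the neutrophil list, at 64.2 CPM against 550 and 919 CPM, but close to them in the interferon, T cell and MHC class II lists. Sums are weighted towards the abundant members.

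Macrophage and monocyte genes rose in part. Of 16 tested, 8 rose, against 7.55% of all genes, and none fell (median log2 change 1.33). Ccr2, the receptor that brings monocytes into tissue, stood at 23.7, 61.1 and 68.7 CPM at day 22 and at 7.87 to 12.99 CPM in untreated colon (5.21-fold, adjusted p = 0.00275, edgeR), and its ligand Ccl2 rose 10.97-fold (adjusted p = 0.00421). Lyz2, myeloid lysozyme, rose 3.51-fold to 654, 1488 and 1228 CPM (adjusted p = 0.00627), and Itgax, encoding CD11c, rose 2.42-fold (adjusted p = 0.00771). Arg1, the arginase of repair macrophages, reached 0.860, 12.3 and 38.7 CPM from at most 0.723 CPM (adjusted p = 0.0142). C1qa and C1qb, complement genes of tissue macrophages, rose 2.61-fold and 2.83-fold (adjusted p = 0.0211 and 0.0133). Among the members that did not pass were Cx3cr1, at a mean of 20.6 and 13.5 CPM (adjusted p = 0.295), and Cd163, at 4.29 and 11.96 CPM (adjusted p = 0.112). The number called was 4 without day 22 replicate 2, without replicate 3 or without untreated 22-day replicate 1, and 1 against the 43-day untreated samples alone.

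Mucosal mast cell proteases stood out in the mast cell list. Mcpt1 was at 13.5, 12.99 and 20.7 CPM at day 22 and at 0.248 to 1.06 CPM in untreated colon (29.1-fold, adjusted p = 0.00399), and Mcpt2 rose 30.9-fold (adjusted p = 0.00491). Hdc, histidine decarboxylase, rose 51.8-fold, but in the neutrophil order, at 2.58, 20.2 and 50.9 CPM (adjusted p = 0.00101), and the enzyme is also made by neutrophils. The connective tissue mast cell genes Mcpt4, Cma1 and Cpa3 did not pass (adjusted p = 0.573, 0.4 and 0.411).

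Genes of fetal-like regenerating epithelium rose in 8 of 16 members, against 7.55% of all genes, and none fell (median log2 change 1.45). Clu, which encodes clusterin and marks revival stem cells, stood at 220, 264 and 450 CPM at day 22 and at 69.8 to 170 CPM in untreated colon (3.02-fold, adjusted p = 0.00707, edgeR). Ly6a, encoding Sca-1 of the fetal-like state, rose 2.85-fold to 592, 810 and 882 CPM (adjusted p = 0.00869). Msln, encoding mesothelin, rose 16.4-fold (adjusted p = 0.00196), and is also a marker of the mesothelium that lines the outer gut wall.

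Spp1, Ptgs2, Ccn1 and Plaur also rose. Ptgs2, encoding COX-2, and the YAP target Ccn1 rose mainly through replicate 3, at 5.10, 19.9 and 109.4 CPM and at 10.8, 23.7 and 134 CPM. In replicate 1, Ptgs2 was below all untreated samples and Ccn1 within their range. Annexin genes of the same programme were abundant in both groups, with Anxa1 at a mean of 413 and 298 CPM (adjusted p = 0.606). Without day 22 replicate 3, 3 of the 16 genes rose, and without untreated 22-day replicate 1, 5 did. Against the 43-day untreated samples alone 1 did.

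Proliferation genes gave no call. None of 20 cell cycle and DNA replication genes passed the edgeR test in either direction, and their median log2 change was -0.09. Mki67 stood at 62.7, 42.9 and 55.1 CPM at day 22 and at 53.1 to 90.1 CPM in untreated colon (log2 -0.42, SE 0.23, adjusted p = 0.288). The p53 targets, which report on DNA damage such as AOM makes, gave no call either, with 0 of 12 and a median of 0.15, and Bax came closest (log2 0.65, adjusted p = 0.0506).

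Wnt targets and stem cell genes split. Of 16 tested, 4 rose and 1 fell, against 7.55% and 1.98% of all genes, while 11 were below 0 on the log2 scale (median -0.347). Notum, a Wnt-inactivating enzyme, stood at 1.24, 3.16 and 5.68 CPM at day 22 with 8 counts in all untreated samples together (34.3-fold, adjusted p = 0.024), and Cd44, Prom1 and Tcf7 rose 2.55-fold, 2.41-fold and 3.00-fold (adjusted p = 0.00762, 0.013 and 0.00597). Cd44 and Tcf7 are also T cell genes. Lrig1, a brake on EGF receptor signalling in stem cells, fell 1.67-fold (adjusted p = 0.0375). Without day 22 replicate 3, 1 gene of the list rose and none fell, and Lrig1 was also not called without day 22 replicate 2, untreated 22-day replicate 1 or untreated 43-day replicate 2. Lgr5, the receptor of crypt base stem cells, was at 3.62 to 6.13 CPM at day 22 and 4.81 to 6.14 CPM in untreated colon (adjusted p = 0.816), and Axin2 at 15.9 to 23.2 and 24.1 to 44.1 CPM (adjusted p = 0.339).

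Among 11 EGFR ligands and ERBB receptors, the ligands Ereg and Epgn rose, against 7.55% of all genes, and no other member passed. Neither was called without day 22 replicate 2, and Ereg also lost its call without day 22 replicate 3 or without any one untreated sample other than the first 43-day one. Ereg stood at 5.86, 40.0 and 82.8 CPM at day 22 and at 5.51 to 15.9 CPM in untreated colon, with replicate 1 inside the untreated range (4.07-fold, adjusted p = 0.0228, edgeR). Areg, encoding the ligand amphiregulin, stood at 7.2004, 16.9 and 37.6 CPM against 4.72 to 20.9 CPM, so that the groups overlapped (1.62-fold, log2 0.70, SE 0.60, adjusted p = 0.525).

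**Figure D3:**
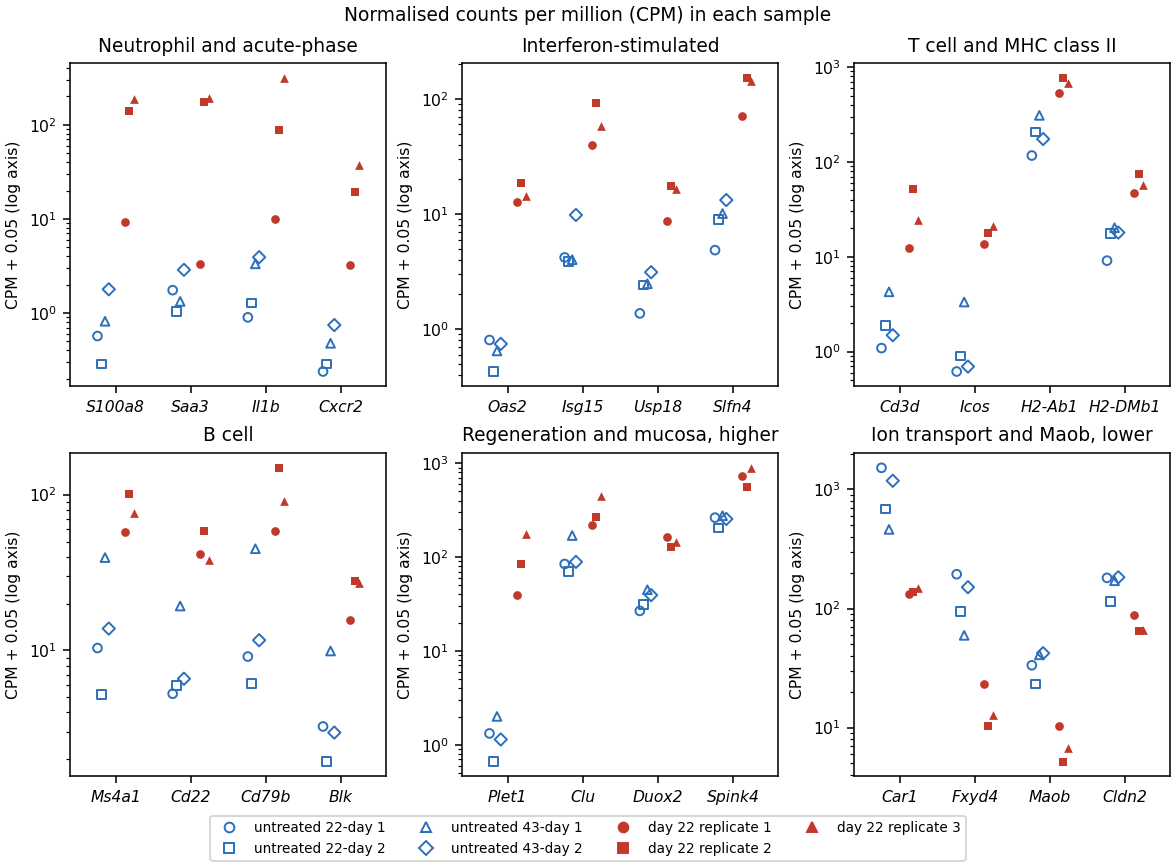
CPM plus 0.05 on a log axis for 4 genes in each of 6 panels, with the 4 untreated samples as open blue symbols and the 3 day 22 samples as filled red symbols. The groups are separate for all 24 genes shown, which were picked from the named genes, and for 26.9% of all genes tested. Day 22 replicate 1 (circle) lies far below the other day 22 samples in the first panel. The first 43-day untreated sample (open triangle) is the highest untreated sample in the B cell panel.

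Matrix remodelling genes were higher. Of 11 metalloproteinases and inhibitors, 6 rose, against 7.55% of all genes, and none fell (median log2 change 1.47). Mmp7, an epithelial matrix protease, stood at 9.40, 20.5 and 39.1 CPM at day 22 and at most at 0.468 CPM in untreated colon (114-fold, adjusted p = 0.00181, edgeR). Mmp9, gelatinase B of neutrophils and macrophages, rose 13.5-fold (adjusted p = 0.000707), Mmp10 rose 18.9-fold (adjusted p = 0.00243), and the inhibitor Timp1 rose 8.19-fold (adjusted p = 0.00117).

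Fewer fibroblast genes passed. Of 18 collagen and fibroblast genes, 4 rose, against 7.55% of all genes, and none fell (median log2 change 0.51). Lox, the enzyme that crosslinks collagen, stood at 14.8, 71.3 and 56.4 CPM at day 22 against 4.804 to 11.3 CPM in untreated colon (6.15-fold, adjusted p = 0.000724). Sparc, Col3a1 and Col1a2 rose 2.78-fold, 2.60-fold and 2.10-fold (adjusted p = 0.00383, 0.0158 and 0.0467), and in each of these the values overlapped, since replicate 1 lay within the untreated range. The number of fibroblast genes called was 7 without day 22 replicate 1, 1 without replicate 2, and 2 without replicate 3 or without either 43-day untreated sample. Postn and Fn1 had means of 282 and 319 CPM and of 275 and 274 CPM at day 22 and in untreated colon.

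The genes that fell included regulators of ion transport and enzymes. Fxyd4, a regulator of the sodium pump in colonocytes, stood at 23.1, 10.2 and 12.7 CPM at day 22 and at 194, 93.9, 59.5 and 151 CPM in untreated colon (8.14-fold lower, adjusted p = 0.00113, edgeR). Maob, monoamine oxidase B, stood at 10.3, 5.15 and 6.66 CPM against 23.2 to 42.1 CPM (4.74-fold lower, adjusted p = 0.000666). Bdh1, which interconverts the ketone bodies acetoacetate and hydroxybutyrate, had the same level in each day 22 sample, at 53.8, 53.4 and 55.2 CPM, and 103 to 151 CPM in untreated colon (2.25-fold lower, adjusted p = 0.00078). The groups were separate for all 3, as the rule that named them required.

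Csad, of taurine synthesis, and Adk, adenosine kinase, fell 1.88-fold and 1.93-fold with a small spread (SE 0.14 and 0.15 on the log2 scale, adjusted p = 0.000673 and 0.000754). Slc1a1, a glutamate transporter, fell 3.54-fold, Gpr89, an ion channel of the Golgi, 2.16-fold and Itih2, a hyaluronan-binding protein gene, 8.01-fold (adjusted p = 0.00109, 0.000871 and 0.00104). Genes known best from neurons were also among the falls of smallest p or largest size: Syn2 (2.80-fold), Rims4 (12.4-fold) and Minar1 (14.1-fold), with adjusted p between 0.000812 and 0.00318. Of 11 enteric neuron and glia markers, none passed in either direction (median log2 change -0.37).

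Of 18 genes of differentiated colonocytes, 1 fell, against 1.98% of all genes, and none rose, although 14 were below 0 on the log2 scale (median -0.80). Car1, carbonic anhydrase 1 of the surface colonocyte, stood at 133, 136 and 149 CPM at day 22 and at 1519, 686, 462 and 1183 CPM in untreated colon (6.89-fold lower, adjusted p = 0.00191, edgeR). The butyrate carrier Slc16a1 and the chloride exchanger Slc26a3 had means of 155 and 231 CPM at day 22 and of 265 and 644 CPM in untreated colon, and did not pass (adjusted p = 0.0813 and 0.185). Krt20, a keratin of differentiated cells, had means of 501 and 454 CPM (adjusted p = 0.898). Without day 22 replicate 1, 6 of the 18 fell and 1 rose, and DESeq2 called 4 lower and 1 higher.

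Fatty acid oxidation and ketogenesis genes fell in 6 of 16, against 1.98% of all genes, and rose in none (median log2 change -0.55). Ppara, the receptor that drives the pathway, fell 3.36-fold, from 3.28 to 4.58 CPM down to 0.866 to 1.56 CPM (adjusted p = 0.022). Acadvl, Acaa2 and Hadh, enzymes of successive steps, fell 1.43-fold, 1.63-fold and 1.73-fold (adjusted p = 0.0228, 0.0343 and 0.032). Etfdh, of electron transfer from the pathway, fell as well. None of the 16 was called without day 22 replicate 2 or without replicate 3, 1 without untreated 22-day replicate 1, and 3 without untreated 43-day replicate 2.

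In the xenobiotic list 4 of 16 fell, against 1.98% of all genes, and none rose (median log2 change -1.02). Cyp2c55, a colonic cytochrome P450, stood at 4.67, 3.16 and 1.86 CPM against 8.26 to 43.2 CPM (9.11-fold lower, adjusted p = 0.00723), and Sult1a1 fell 4.70-fold, Abcb1a 3.02-fold and Gstm1 2.82-fold (adjusted p = 0.00225, 0.0263 and 0.0234). The number that fell was 1 without day 22 replicate 3 and 2 without replicate 2, without untreated 22-day replicate 1 or without untreated 43-day replicate 2. Of 15 tight junction genes, 1 passed: Cldn2, the claudin of the sodium pore, fell 2.22-fold, to 64.9 to 88.6 CPM from 114 to 183 CPM (adjusted p = 0.00981), but was not called without day 22 replicate 2 or 3.

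Of 14 goblet cell genes, Spink4 alone rose, a share close to the 7.55% of all genes. It stood at 732, 560 and 893 CPM against 203 to 276 CPM (2.92-fold, adjusted p = 0.0157) and was not called without day 22 replicate 3. The median log2 change of the list was 0.05. Muc2, the gel-forming mucin, stood at 281, 135 and 154 CPM against 78.5 to 108 CPM (adjusted p = 0.0743). Of 12 enteroendocrine genes, Nts alone, encoding neurotensin, rose (5.43-fold, adjusted p = 0.0167), a share close to the 7.55% of all genes. Its value in day 22 replicate 1 lay inside the untreated range. Nts was not called without day 22 replicate 2 or 3 or untreated 22-day replicate 1. Of 9 tuft cell genes none passed.

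Cholesterol supply genes fell in part. Of 14 genes of oxysterol and cholesterol supply, 4 fell and 1 rose, against 1.98% and 7.55% of all genes (median log2 change -0.88). Hmgcs1, an early enzyme of cholesterol synthesis, stood at 85.7, 97.3 and 171 CPM at day 22 and at 292, 124, 411 and 596 CPM in untreated colon (3.01-fold lower, adjusted p = 0.0297, edgeR). Sqle and Lss, later enzymes of the same pathway, fell 2.19-fold and 2.32-fold (adjusted p = 0.037 and 0.0165). The groups overlapped for these 3, and in each the second 22-day untreated sample lay below day 22 replicate 3. The number that fell was 0 without day 22 replicate 1, without day 22 replicate 2, without untreated 43-day replicate 2, or with the 7 samples compared alone, and 1 without either of the first untreated samples.

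Ch25h, which makes the oxysterol 25-hydroxycholesterol, rose 2.78-fold, to 6.02, 4.18 and 7.23 CPM from 1.46 to 2.77 CPM (adjusted p = 0.00679). Cyp27a1, the enzyme that makes 27-hydroxycholesterol, stood at 52.5, 31.4 and 23.6 CPM against 18.9 to 40.1 CPM (1.20-fold, adjusted p = 0.684). Of 12 LXR targets and receptors, 1 rose, a share close to the 7.55% of all genes, and 1 fell (median log2 change -0.153). Their summed level was 563.3 to 599.5 CPM at day 22 and 715.5 to 851.5 CPM in untreated colon. The fatty acid synthase gene Fasn fell 2.19-fold (adjusted p = 0.0284, edgeR). Fasn was not called without day 22 replicate 2 or 3 or without either 43-day untreated sample. The cholesterol exporter Abcg1 rose 2.16-fold (adjusted p = 0.007, edgeR), but was not called against the 22-day untreated samples alone. Abca1, the exporter of the same family, stood at 39.0 to 44.0 CPM and 18.5 to 41.0 CPM (adjusted p = 0.184), and Srebf1 at 72.5 to 78.7 and 79.5 to 144 CPM (log2 -0.55, SE 0.18, adjusted p = 0.0636). Nr1h3 and Nr1h2, the genes of LXRα and LXRβ, were at means of 28.9 and 28.2 CPM and of 93.0 and 80.2 CPM.

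**Figure D4:**
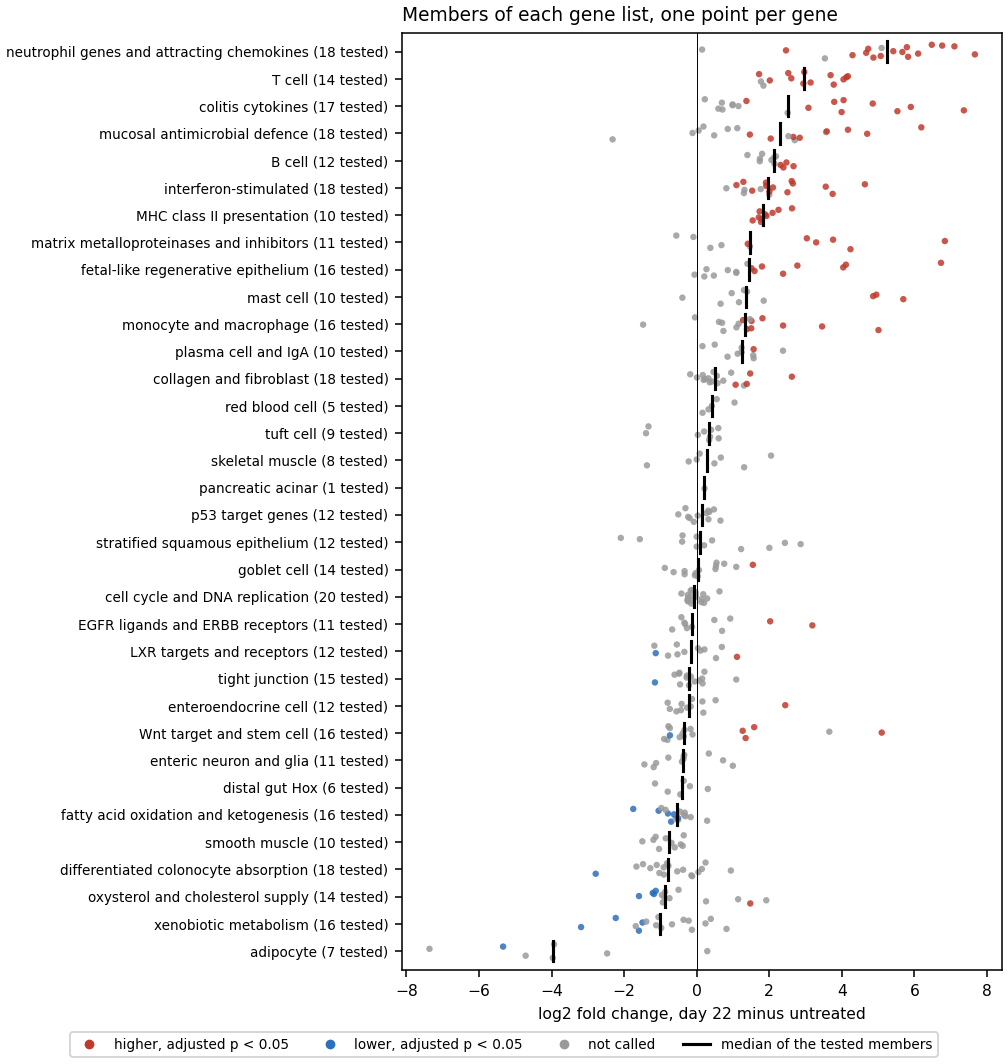
Each point is a tested gene of one of 34 lists, placed by its log2 fold change at day 22 over untreated colon, red or blue where the adjusted p was under 0.05, and the black bar is the list's median. The neutrophil list has the highest median, 5.26, and the adipocyte list the lowest, -3.97, where 1 of 7 genes passed by edgeR and 4 by DESeq2.

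Markers of tissue that a biopsy can hold in varying amounts were followed over the same samples. The 10 smooth muscle genes all lay below 0 with a median log2 change of -0.78, and none passed. Their summed level was 5664 to 12950 CPM at day 22 and 9403 to 27510 CPM in untreated colon. Of 7 adipocyte genes, Plin1 fell, at 0.161, 0.102 and 0 CPM against 0.248 to 7.65 CPM (adjusted p = 0.0453), a call kept in 1 of the 7 fits that left out a sample, and the list's median was -3.97, with a summed level of 50.01 to 66.6 CPM at day 22 and 25.6 to 210 CPM in untreated colon. None of 12 squamous epithelium, 8 skeletal muscle or 5 red blood cell genes passed, nor the pancreatic gene tested. The part of these tissues in the genes that fell was not tested.

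Some rises came from gene models that share sequence. Gm45837 and Gm43302 had 0 counts in every untreated sample, and at day 22 gave 30.8, 6.17 and 17.4 CPM and 2.10, 7.39 and 1.39 CPM. Against a floor of 3 counts over the untreated group they were at least 496-fold and 102-fold higher (adjusted p = 0.00447 and 0.0134, edgeR). In the annotation, Gm45837 (chromosome 7, 101410886 to 101512819, plus strand) overlaps Arap1 and Pde2a on the same strand, and Gm43302 (chromosome 5, 105214907 to 105293695, minus strand) overlaps Gbp6 and Gbp10, so that the assignment of their reads is uncertain. Prss22, a serine protease gene of epithelium, went from 4 counts in all untreated samples to 1.99, 13.9 and 15.6 CPM (ratio 221, 95% counting interval 85.7 to 812; adjusted p = 0.00553).

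The response was set beside that of mice on a diet with the LXR agonist GW3965, whose own day 22 and untreated samples (3 and 4) were compared in the same fit. No gene's response differed between the diets at an adjusted p under 0.05 by edgeR (smallest 0.143, with 909 genes at an unadjusted p under 0.05), while DESeq2 called 43. The 4 genes with ribosomal percentage as a term, and the 1 without day 22 replicate 3, are the other calls made by edgeR. Retnlb, named after its values were seen, had the smallest p, with 336, 1092 and 1033 CPM at day 22 of the GW3965 diet and at most 0.197 CPM in the untreated mice of that diet, against 2.26, 3.82 and 20.0 CPM at day 22 of the standard diet (difference of responses 8.30 on the log2 scale, adjusted p = 0.143). Plet1, S100a8 and Car1 gave differences of 1.68, 1.07 and -1.04 on the log2 scale (adjusted p = 0.925, 1.00 and 0.972). These p-values do not show that the diets gave the same response.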

How the data were processed

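Distal colon biopsies were profiled by bulk RNA-seq in 26 samples of 8 groups. The authors quantified transcripts with kallisto against GRCm38 (per the submitters' processing notes), and deposited for each sample the estimated counts, effective length and TPM of 119414 transcripts. Of these, 116728 (97.8%) were matched to genes and their estimated counts were summed to 35975 genes. The unmatched transcripts held 0.615% to 0.999% of the counts. Totals ran from 18195345 to 41522204 per sample, which sets the precision for low genes. No column of per-sample values was left unused.

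Sums were rounded to whole numbers, filtered by expression and scaled by TMM. All 8 groups were fitted together, so that they share the estimate of spread, without covariates, by the edgeR 4.0.16 quasi-likelihood test in R 4.3.3, two-sided, with Benjamini-Hochberg adjustment over 17063 genes and a threshold of 0.05. CPM values are per 1000000 of the TMM-scaled library. The authors' model held the percentage of ribosomal RNA, whose calculation is not given in the sources used here. As alternatives, the percentage of counts in 88 ribosomal protein genes was used in its place, so these do not repeat the authors' model. The 26.9% of genes without overlap were counted from CPM. Counting intervals are exact (Clopper-Pearson, 95%), the floor is 3 counts over a group, and both cover counting error only.

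Named genes were, among protein-coding genes called without overlap at a mean of at least 1 CPM, the 10 of smallest p and the 5 of largest change in each direction, then the 4 called members of smallest p per direction in each list, and 10 genes of the study's question. A few genes that this rule names are not reported here. Other list members named in the text were picked after their values were seen. The comparison and the lists were chosen with earlier results of these data known. Alternatives were DESeq2 1.42.0, its size factors, no filter, effective length offsets, the ribosomal percentage, the 7 samples alone, either untreated set alone, a replicate block and each sample left out. The script was tested on simulated data.

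Promoter windows are RefSeq's on GRCm38.p6, from 250 bases before to 50 after the start, for 27025 genes, searched on both strands.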

Additional observations from a re-analysis of the deposited data

Results flagged for a closer look

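In 7 of the 103 named genes 1 of the 4 untreated samples stood apart from the others by Dixon's ratio of gap to range on log2 CPM, where chance flags about 1 in 20 groups. Untreated 43-day replicate 1 was high in the B cell gene Cd22 (ratio 0.8294, 19.2 CPM), and it held the single count of Il17a (1, 0.0426 CPM). Isg15 was high in untreated 43-day replicate 2 (0.915, 9.76 CPM). Untreated 22-day replicate 1 was high in Csad (0.895, 50.3 CPM) and low in H2-DMb1 (0.834, 9.04 CPM) and Itgax (0.94, 4.95 CPM). Cldn2 was low in untreated 22-day replicate 2 (0.857, 114 CPM).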

How the results depend on the processing

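The counts of genes higher and lower were 1289 and 337, with 130 list members called. Leaving out 1 sample gave 585 to 1394 higher, 59 to 467 lower and 72 to 142 list members. DESeq2 gave 1555, 769 and 168, so that the share higher was 66.9% of its calls against 79.3%. The 7 samples alone gave 569 lower, and a 2-fold minimum 176. With untreated mice of 22 diet days alone the counts were 811 and 149, and of 43 days alone 285, 121 and 53. The ribosomal slope per group, evaluated above the percentages of the untreated samples, gave 0 in all 3 counts (168 genes at an unadjusted p under 0.05). For the difference between diets, 0 genes became 4 with the ribosomal term, 43 in DESeq2 and 0 to 1 without 1 sample. The cause of these shifts was not tested.

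Of 1748 values of the named genes under the alternatives, 1434 kept direction and side of the threshold, 286 lost it, 7 gained it and 21 changed sign. With the ribosomal slope per group the log2 changes were -1.22 for Icos, -0.15 for Gzma, -0.81 for Mcpt2, -0.032 for H2-DMa, -0.55 for H2-Ab1, -0.81 for H2-Eb1, -0.29 for Clu, -0.66 for Blk, -0.97 for Cd22, -1.29 for Cd79b, -0.84 for Ms4a1, -1.51 for Cr2, -0.23 for Abca1, 0.22 for Fxyd4, 0.98 for Car1, 0.49 for Cyp2c55, 0.20 for Abcb1a and 0.12 for Lgr5. Cyp27a1 was at -0.063 with untreated mice of 22 diet days alone and from -0.13 to 0.48 without 1 sample, lowest without day 22 replicate 1. Areg ran from -0.095 without day 22 replicate 3 to 1.10 without replicate 1.

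Replicate numbers did not pair the samples, since the correlations of same-numbered deviations ran from -0.28 to 0.198, and a replicate block gave 1113 higher and 259 lower. Depth limits genes near 0, where a count of 0 in all untreated samples allows up to 0.0372 CPM.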

Other observations

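Genes of the Krebs cycle and respiratory chain, a list written after the values were seen, lay low at day 22. Of 36 tested, 15 fell, against 1.98% of all genes, and none rose. Of the 36, 35 were below 0 with a median log2 change of -0.55, against 0.01 over all genes tested. Suclg2, a subunit of succinyl-CoA synthetase, fell from a mean of 208 to 102 CPM (log2 -1.03, adjusted p = 0.00794, edgeR), and the list included Cs, citrate synthase (432 to 253 CPM), Sdha of complex II (322 to 173 CPM) and Ndufs1 of complex I (130 to 70.3 CPM). The mitochondrially encoded genes took 6.16% to 12.5% of counts at day 22 and 5.32% to 11.3% in untreated colon.

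The 10 most abundant genes called in each direction were also picked after their values were seen. Those that rose were Tmsb4x, Ftl1, Cd74, H2-D1, Col3a1, H2-K1, B2m, Lyz2, Sparc and Ly6a. B2m, H2-D1 and H2-K1 belong to MHC class I, with B2m at 1124, 1365 and 1317 CPM against 370 to 485 CPM (adjusted p = 0.00508). Those that fell were Atp5b, Scd2, Gsn, Gsdmc4, Car1, Selenbp1, Car2, Atp5a1, Maoa and Cs. Among them were Scd2, a fatty acid desaturase (490 against 1332 CPM), Selenbp1, a methanethiol oxidase of the colon (172 against 816 CPM), Gsdmc4, a gasdermin (262 against 1006 CPM), and Maoa, the partner of Maob (174 against 485 CPM).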
